A study of Mus musculus with 44 samples.

Results

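The neurotrophins are a small family of secreted growth factors, and 6 genes of this system were followed here in ribosome-bound mRNA of the mouse hippocampus. They encode the ligands BDNF (*Bdnf*) and neurotrophin-3 (*Ntf3*), the receptor tyrosine kinases TrkB (*Ntrk2*) and TrkC (*Ntrk3*), the p75 neurotrophin receptor (*Ngfr*) and the sorting receptor sortilin (*Sort1*). The genes were chosen by symbol, and all 6 of them were found among the 55335 genes of the count table.

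BDNF is made as a precursor, is packaged into secretory vesicles with the help of sortilin, and is released from neurons in response to activity. Mature BDNF binds TrkB and neurotrophin-3 binds TrkC, which signal through the Ras-MAP kinase, PI3 kinase-Akt and phospholipase C-gamma routes. The uncleaved precursors bind p75 together with sortilin. In the hippocampus BDNF and TrkB are known for their part in long-term potentiation and memory, and running is a classical stimulus for *Bdnf* transcription.

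All libraries came from male Emx1-NuTRAP mice, in which Cre driven from the Emx1 locus switches on tags of ribosomes and of the nuclear membrane, so that translating mRNA can be pulled down from the Emx1 lineage (chiefly excitatory neurons, but also neural progenitors and some astrocytes). Early-life exercise (ELE) mice could run on a wheel between postnatal days 21 and 41, and sedentary mice had no wheel. Mice were pair-housed, so that cage mates shared a wheel. Ribosome-bound mRNA was isolated together with nuclei from both hippocampi of 1 mouse (the simultaneous protocol, SIT; 4 ELE and 4 sedentary mice), or separately from the left or the right hippocampus (3 ELE and 3 sedentary mice for each side), with the opposite hippocampus of the same mouse used for nuclei. Left and right follow the study's table of mouse numbers, and the order of the sample labels, read as that of the columns, would exchange the hemispheres in all 12 of these libraries.

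Libraries held between 45895097 and 65767802 counts. The SIT comparison used the 3 ELE and 2 sedentary libraries that the study compared, which left out NT6.304 (ELE), NT7.2.3 (sedentary) and NT7.2.4 (sedentary). Mitochondrial genes took 8.64% and 9.64% of the counts in the 2 sedentary ones, against at most 0.523% in any other library. Among these SIT mice the number TG7.4 occurred only in ELE and NT7.2 only in sedentary mice, so that for them exercise and this part of the mouse number cannot be told apart. The 7 excitatory neuron markers summed to between 7116 and 11030 CPM (counts scaled to a common library total) in the compared libraries and 6 inhibitory neuron markers to between 40.7 and 75.8. The 6 astrocyte markers summed to between 1837 and 5343 CPM and 6 oligodendrocyte markers to between 2255 and 3703, so that mRNA of these glia was present. The 5 microglia markers stayed between 1.51 and 6.43 CPM.

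*Bdnf* lies on the forward strand of chromosome 2 of GRCm38, from 109674700 to 109727007, and is transcribed from several start sites, each in front of its own first exon, some of which respond to neuronal activity through cyclic AMP response elements (CREs). The counts sum all of these transcripts, so that the start sites could not be told apart. RefSeq promoters of GRCm38.p6, reaching from 250 bases before a start site to 50 bases after it, were given for 7 *Bdnf* starts, 2 of *Ntf3* and 1 each of *Ntrk2* and *Ngfr*. The full CRE, TGACGTCA, was in none of these promoters and in 1.79% of all 32851 promoters. Its half-site, CGTCA on either strand, which every full CRE also holds, was in 1 of the 7 *Bdnf* promoters (14.3%) and in 20.8% of all promoters. That match lay 35 bases upstream of the third *Bdnf* start along the chromosome, at chr2:109692389-109692417 on the forward strand. It is shown, with the half-site in capitals, because *Bdnf* was the member that passed the threshold with exercise:
Bdnf start 3: tatgacagctcaCGTCAaggcagcgtgga
The promoters of *Ntf3*, *Ntrk2* and *Ngfr* held no half-site, and 1 of the 2 *Ntf3* promoters held the E-box CACGTG, which was in 7.15% of all promoters.

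Levels were compared between genes as TPM, that is, counts per length of annotated exons scaled to a common total. *Sort1* was the highest of the 6 genes, with a median of 414.7 TPM over the 17 compared libraries (range 333 to 531), and ranked 391 among 30055 genes with counts. *Ntrk2* followed with 146 TPM (90.6 to 165), then *Bdnf* with 47.0 TPM (36.9 to 71.1) and *Ntrk3* with 22.4 TPM (16.8 to 30.8). *Ntf3* had 17.6 TPM (6.59 to 26.0). The ranges of neighbouring genes in this order did not overlap except for *Ntrk3* and *Ntf3*, where *Ntrk3* was the higher in 12 of 17 libraries. With the longest transcript in place of all exons as the length, *Ntrk3* was the higher in 17 of 17, so that the order of these neighbours depended on the length used. By that length the median of *Ntrk2* was 248 TPM. *Ngfr* was the lowest, with a median of 0.721 TPM (0.205 to 1.64) from between 11 and 93 counts per library.

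**Figure D1:**
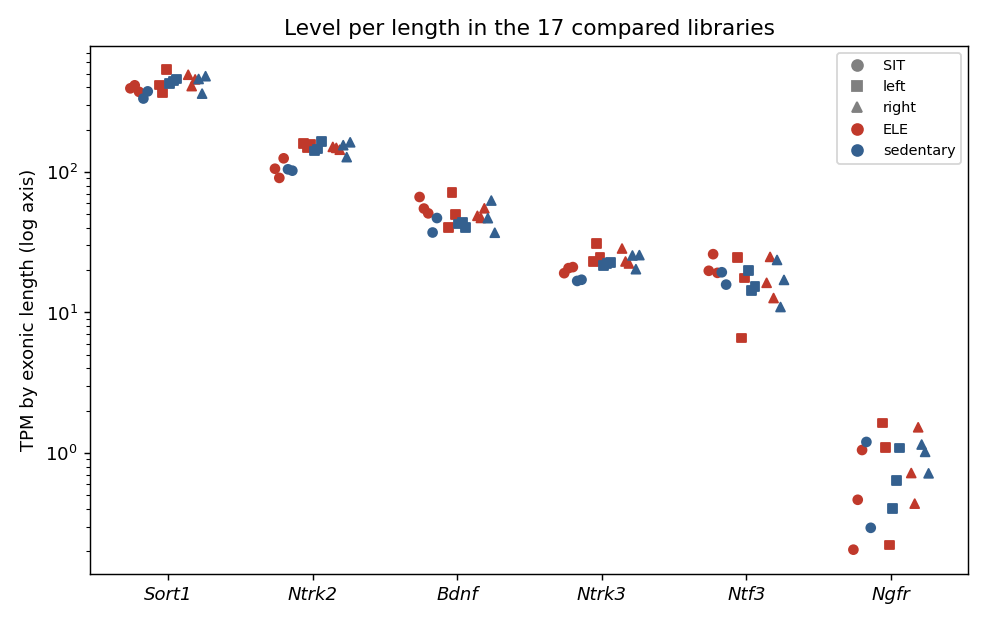
TPM by exonic length (log axis) of the 6 genes in the 17 compared libraries; circles are SIT, squares left and triangles right hippocampi, red ELE and blue sedentary mice. *Sort1* is highest (333 to 531 TPM) and *Ngfr* lowest (0.205 to 1.64 TPM), and only *Ntrk3* and *Ntf3* overlap.

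The Trk receptors stood apart in level. Within a compared library, *Ntrk2* had between 4.38 and 7.22 times the TPM of *Ntrk3* by exonic length, and 3.09 times in NT6.304, which the study left out. With the longest transcript as the length the ratio lay between 6.32 and 10.4, and was 4.45 in NT6.304. The counts do not tell full-length from truncated TrkB or TrkC, which lack the kinase. Other annotated genes overlap *Bdnf*, *Ntrk2*, *Ntrk3* and *Sort1*. The most abundant of them was *Gm9885*, an antisense gene within *Ntrk3*, with 312 to 576 counts per library, against 7128 to 12822 for *Ntrk3* in the compared libraries.

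*Bdnf* was higher in ELE than in sedentary mice after SIT. The ELE libraries had 109 (NT6.303), 89.8 (TG7.4.1) and 91.3 CPM (TG7.4.2), and the sedentary libraries 64.1 (NT6.305) and 77.6 CPM (NT6.306). Every ELE library was above both sedentary ones. The means were 96.6 ± 10.5 CPM (SD, n = 3) and 70.9 ± 9.59 CPM (SD, n = 2). The log2 fold change was 0.44 (standard error 0.13), a 1.36-fold difference, with an unadjusted p of 0.0059 and an adjusted p of 0.905 from edgeR's quasi-likelihood test. It passed the study's threshold, an unadjusted p under 0.05 with a change of more than 1.31-fold in either direction, and did not pass after Benjamini-Hochberg adjustment over 18238 genes. *Bdnf* was the only member of the 6 past this threshold, which 3.65% of all genes tested passed, 1.54% with ELE higher. Of the 6 members, 3 (*Bdnf*, *Ntrk3* and *Sort1*) had every ELE library above both sedentary ones. Among all genes 22.1% had groups that did not overlap in SIT, and 10.4% had them with ELE above. In the same libraries the summed excitatory neuron markers were also higher in every ELE mouse (7586 to 8193 against 7116 to 7127 CPM). The choroid plexus markers were lower in every ELE mouse (129 to 572 against 586 to 669 CPM), and so were the microglia markers (2.72 to 3.63 against 3.77 to 3.90 CPM). Their part in the *Bdnf* difference was not tested. The study itself named *Bdnf* from these libraries, so that the value is not independent evidence of its direction.

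The libraries that the study left out moved the size of this difference. ELE mouse NT6.304 had 239.6 CPM of *Bdnf*, over 2 times the next ELE library, while the sedentary libraries NT7.2.3 and NT7.2.4 had 64.1 and 56.0 CPM. With all 8 libraries the ELE range was 89.8 to 239.6 CPM and the sedentary range 56.0 to 77.6 CPM, again without overlap, and the log2 fold change was 1.01 (adjusted p = 0.411, edgeR). The added libraries also differed in markers of other cells, and the part of these was not tested. NT7.2.3 and NT7.2.4 had summed inhibitory neuron markers of 804 and 841 CPM, against at most 109 CPM elsewhere, and summed microglia markers of 143 and 151 CPM, against at most 8.24 CPM. NT6.304 had the highest sum of striatum markers (134 CPM, against at most 79.1 CPM). Within the 4 mice numbered NT6, which include NT6.304, it was 1.283 (adjusted p = 0.648). In the compared set, the log2 fold change fell below the fold threshold without NT6.303 (0.35) and without NT6.305 (0.31), and was 0.59 without NT6.306. Without NT6.305 or NT6.306 a single sedentary library is left.

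In the left hippocampus *Bdnf* had 62.0 (TG7.3.2), 116 (TG9.1.4) and 78.3 CPM (TG9.2.2) in ELE mice, and 69.1 (TG7.3.4), 70.9 (TG9.1.2) and 64.4 CPM (TG9.2.4) in sedentary mice. The groups overlapped, since 1 ELE library was below every sedentary one and the other two were above. ELE exceeded sedentary by 0.33 on the log2 scale (standard error 0.19), with an adjusted p of 0.960 (edgeR), and *Bdnf* was not called. Of all genes tested on the left, 2.07% were, and none of the 6 members was among them. The oligodendrocyte markers were lower in every left ELE mouse (2693 to 3016 against 3028 to 3534 CPM), and their part was not tested. The left value rested on TG9.1.4: without it the log2 fold change was 0.05, and without TG7.3.2, the lowest ELE library, it was 0.50 and past the threshold (unadjusted p = 0.0115, adjusted p = 0.643, edgeR).

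In the right hippocampus *Bdnf* had 78.4 (TG7.3.1), 76.9 (TG9.1.3) and 88.4 CPM (TG9.2.1) in ELE mice, and 75.8 (TG7.3.3), 101.5 (TG9.1.1) and 56.7 CPM (TG9.2.3) in sedentary mice. The sedentary mice spanned the whole ELE range. The fitted log2 fold change of 0.06 (standard error 0.17, edgeR adjusted p = 0.9998) was within 1 standard error of 0. None of the members was called on the right, where 1.97% of all genes were. No member had groups without overlap on the left or on the right, against 10.7% and 7.66% of all genes. Leaving out sedentary mouse TG9.1.1 gave 0.29, and leaving out sedentary mouse TG9.2.3 gave -0.12, and leaving out ELE mouse TG9.2.1 gave -0.004, so that the sign depended on single mice.

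**Figure D2:**
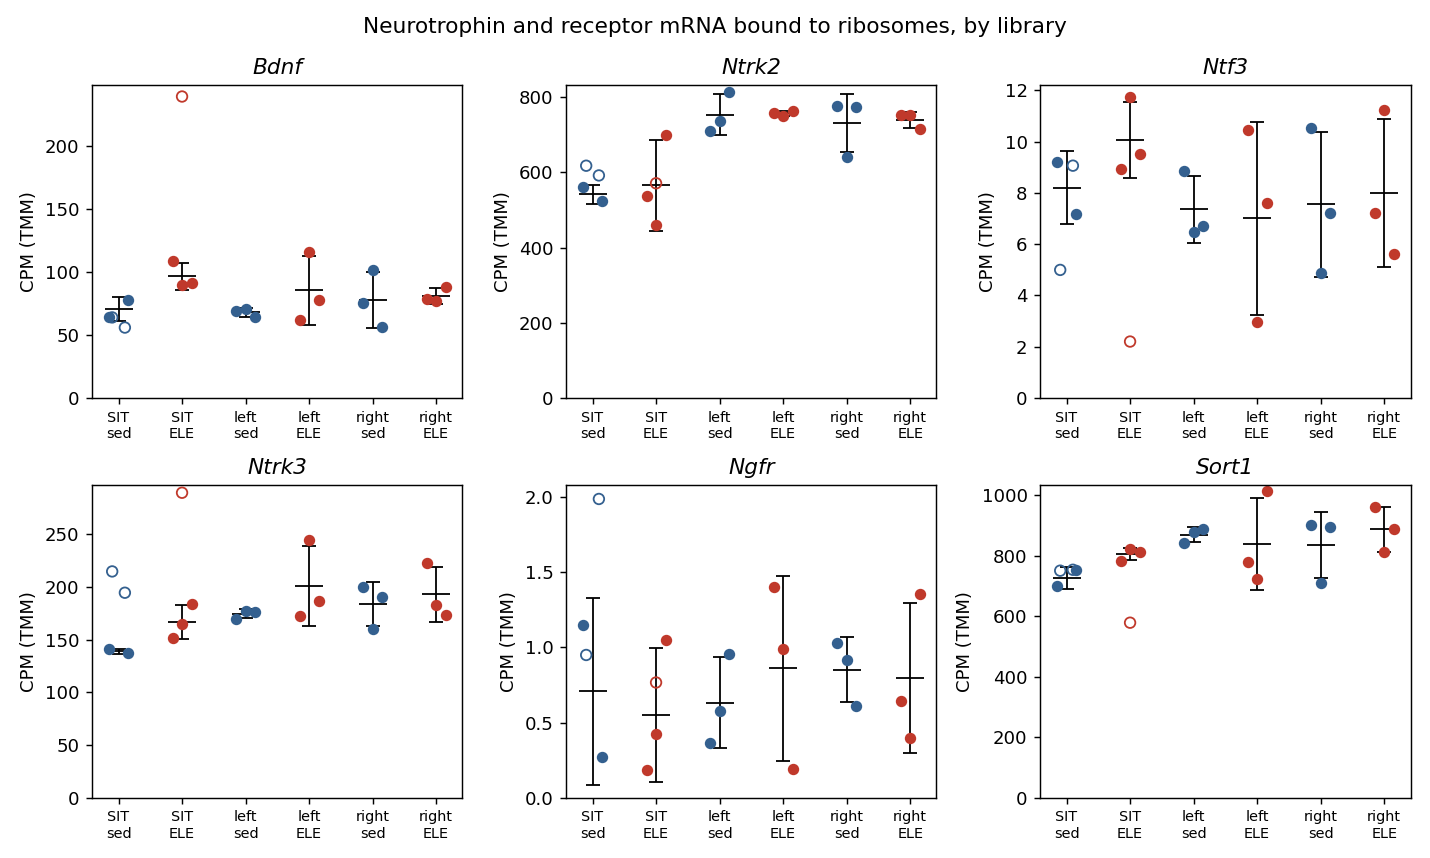
CPM (TMM-scaled) of each gene in each library, by isolation, hemisphere and exercise; filled points are compared libraries, open points the 3 SIT libraries left out, red ELE and blue sedentary, with the mean and SD of the compared libraries as bars. *Bdnf* in the compared SIT ELE mice (89.8 to 109 CPM) lies above the sedentary mice (64.1 and 77.6 CPM), while the groups overlap in the left and right hippocampus.

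Whether exercise acted alike in the 3 sets was asked of the differences themselves. The exercise effect on *Bdnf* was larger in SIT than on the left by 0.13 (standard error 0.28) and than on the right by 0.38 (standard error 0.28) on the log2 scale, and neither difference passed (edgeR adjusted p = 1 for both), against 3.91% and 3.71% of all genes called for them. With all 8 SIT libraries these differences were 0.67 (edgeR adjusted p = 0.840) and 0.94 (edgeR adjusted p = 0.809). The latter passed the unadjusted threshold there, as did 1104 of 19935 genes. Without the filter on low counts SIT minus right also passed (0.39), as did 1365 of 30122 genes. Between the hemispheres the effect was 0.26 larger on the left (standard error 0.29, adjusted p = 1), and 2.2% of all genes were called for this interaction. With these errors, neither no difference nor one as large as the SIT effect was resolved. Over the 12 separately isolated libraries ELE mice were higher by 0.20 on the log2 scale (standard error 0.14, edgeR adjusted p = 0.937), where 2.01% of all genes were called (0.057 without TG9.1.4 and 0.31 without TG9.1.1), and over SIT, left and right together it was 0.26 (standard error 0.11, unadjusted p = 0.0301, adjusted p = 0.641). The last value was below the fold threshold, and its unadjusted p was above 0.05 when any 1 of NT6.303, NT6.305, TG9.1.4, TG9.2.4 and TG9.2.3 was left out. The log2 fold changes were then 0.23, 0.22, 0.18, 0.25 and 0.22 in that order. In the fit over SIT, left and right, 7.25% of all genes had an unadjusted p under 0.05, and 2.55% passed both limits. Without the filter on low counts the adjusted p of *Bdnf* in this joint fit was 0.0217 (edgeR) at a log2 fold change of 0.27, below the fold threshold. There 256 of 30122 genes had an adjusted p under 0.05, against 0 of 20345 with the filter. With all 8 SIT libraries the log2 fold change of *Bdnf* was 0.515 and past the threshold (adjusted p = 0.430, edgeR), as were 833 of 19935 genes.

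**Figure D3:**
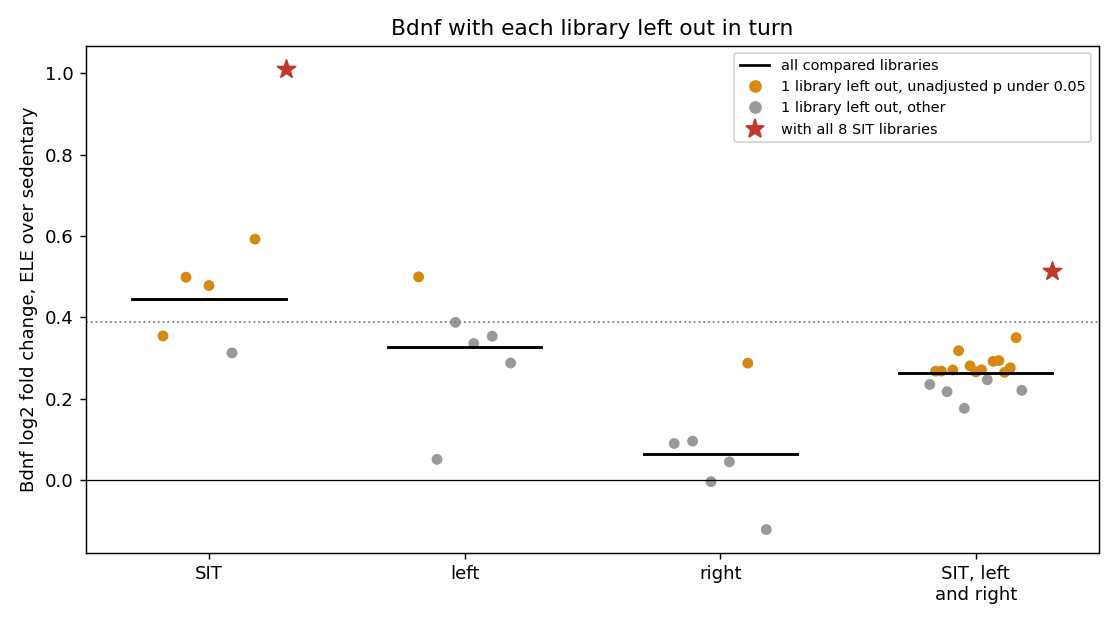
Log2 fold change of *Bdnf*, ELE over sedentary, in each comparison (line), with each library left out in turn (points; orange where the unadjusted p is under 0.05) and with all 8 SIT libraries (stars); the dotted line is the fold threshold. With 1 library left out the SIT value lies between 0.31 and 0.59, the left value between 0.05 and 0.50, and the right value on both sides of 0 (-0.12 to 0.29), while the SIT value with all 8 libraries is 1.01.

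*Ntf3*, the ligand of TrkC, did not pass in any set. In SIT it had 8.95, 11.7 and 9.50 CPM in the ELE libraries and 9.21 and 7.19 CPM in the sedentary libraries, a log2 fold change of 0.29 (standard error 0.21). On the left it had 10.4, 2.97 and 7.61 CPM against 8.86, 6.48 and 6.72, and on the right 7.22, 11.2 and 5.60 CPM against 10.5, 4.89 and 7.22. The groups overlapped in all 3 sets. The log2 fold changes on the left and right were -0.06 (standard error 0.40) and 0.09 (standard error 0.31). *Ntf3* varied more between mice than *Bdnf*, with a 3.95-fold range over the compared libraries against a 2.05-fold range.

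*Ntrk3*, which encodes TrkC, was the second gene of the group with an unadjusted p under 0.05 in SIT. The ELE libraries had 152 (NT6.303), 164 (TG7.4.1) and 184 CPM (TG7.4.2) and the sedentary libraries 141 (NT6.305) and 137 CPM (NT6.306), without overlap. The log2 fold change of 0.26 (standard error 0.11, unadjusted p = 0.0383, adjusted p = 0.905, edgeR) was below the fold threshold, and 5.48% of all genes had an unadjusted p under 0.05 in SIT. That of *Ntrk3* was above 0.05 without TG7.4.1 (log2 fold change 0.27) and without TG7.4.2 (0.18). Without NT6.305 or NT6.306, which leaves a single sedentary library, the log2 fold change was 0.28 and 0.24. With all 8 libraries the groups overlapped, since NT7.2.3 and NT7.2.4 had 215 and 194 CPM, and the log2 fold change was 0.19 (adjusted p = 0.799). Within the NT6 mice alone, which include NT6.304, it was 0.65 (adjusted p = 0.648, edgeR). On the left the ELE mice had 173, 244 and 186 CPM and the sedentary mice 169, 178 and 176 CPM. On the right they had 223, 183 and 174 CPM against 199, 160.0 and 191 CPM. The log2 fold changes were 0.21 (standard error 0.12) and 0.08 (standard error 0.12), neither past the threshold, and the left value was 0.052 without TG9.1.4. Over SIT, left and right together *Ntrk3* was higher by 0.17 (standard error 0.071, unadjusted p = 0.0234, adjusted p = 0.616, edgeR). In that fit 7.25% of all genes had an unadjusted p under 0.05, and *Ntrk3* did not without TG9.1.4, without TG7.3.1 or with all 8 SIT libraries.

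*Ntrk2*, which encodes the BDNF receptor TrkB, changed little between the groups. In SIT the ELE libraries had 536 (NT6.303), 461 (TG7.4.1) and 698 CPM (TG7.4.2) and the sedentary libraries 559.9 (NT6.305) and 523.5 CPM (NT6.306), with ELE mice on both sides of the sedentary pair. On the left the ELE mice lay between 750.3 and 763 CPM and the sedentary mice between 709 and 814, and on the right between 716 and 752 against 642 to 777. The log2 fold changes were 0.06 (standard error 0.15) in SIT, 0.01 (standard error 0.073) on the left and 0.02 (standard error 0.095) on the right. Over all 3 sets together it was 0.03 with a standard error of 0.066, so that the fitted value lay within 1 standard error of 0 in every set.

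*Sort1*, the sorting receptor, had 785, 823 and 814 CPM in the SIT ELE libraries and 700.0 and 753 CPM in the sedentary libraries. The ELE libraries were all above, by a fitted 0.15 on the log2 scale (standard error 0.079, edgeR adjusted p = 0.932). With all 8 SIT libraries the groups overlapped, since NT6.304 had 579 CPM, and the value was 0.017. On the left the ELE mice had 781, 724 and 1014 CPM and spanned the sedentary range of 843 to 888 CPM. On the right they had between 812 and 963 CPM against 712 to 901 CPM. The log2 fold changes there were -0.05 (standard error 0.12) and 0.09 (standard error 0.11).

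*Ngfr*, the p75 receptor, was close to the floor of detection in every set. Its levels lay between 0.187 and 1.05 CPM in SIT ELE mice and were 0.269 and 1.15 CPM in SIT sedentary mice. On the left they were between 0.193 and 1.40 CPM in ELE and between 0.364 and 0.958 CPM in sedentary mice, and on the right between 0.396 and 1.36 against 0.611 to 1.03 CPM. The groups overlapped throughout. The standard errors of the log2 fold changes were 0.98, 0.69 and 0.54 in SIT, left and right, so that even a log2 fold change of 1 would have been within 2 standard errors of 0.

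**Figure D4:**
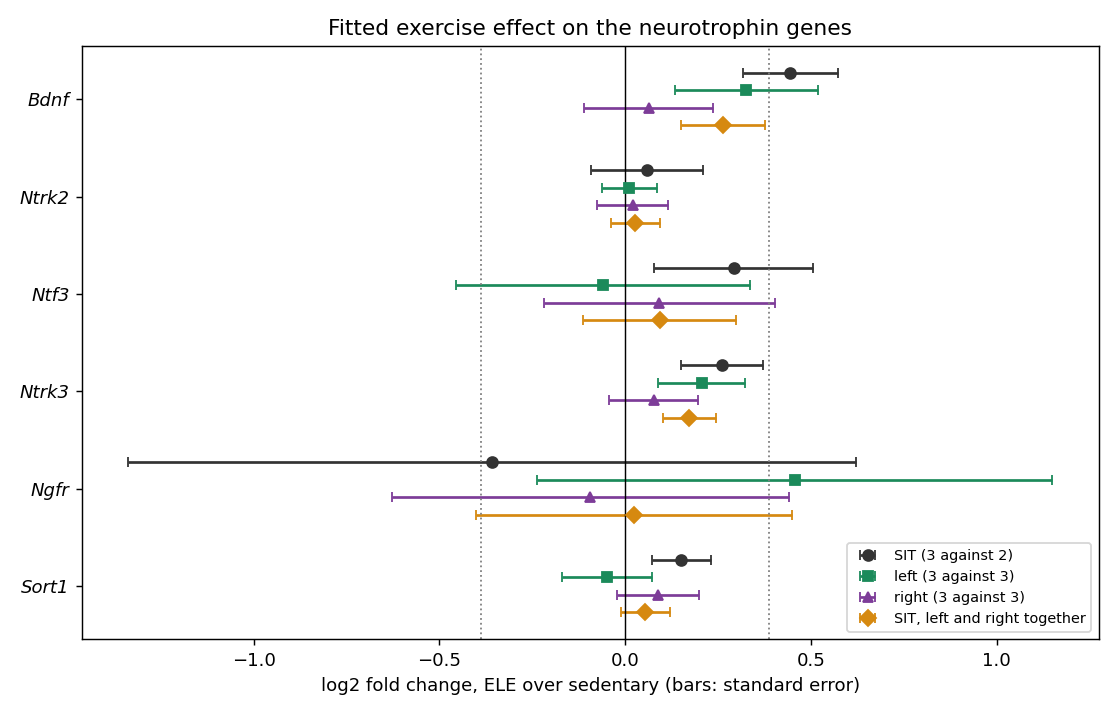
Log2 fold change of ELE over sedentary mice with its standard error for each gene in SIT, left, right and all 3 sets together; dotted lines mark the fold threshold in either direction. *Bdnf* in SIT (0.44) is the only point past the threshold with an unadjusted p under 0.05, and *Ngfr* has the widest bars.

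Left and right hippocampi were also compared with each other. In sedentary mice the 6 log2 differences of left over right lay between -0.42 (*Ngfr*) and 0.06 (*Sort1*), and for *Bdnf* the value was -0.19 (standard error 0.17). In ELE mice they lay between -0.19 (*Ntf3*) and 0.12 (*Ngfr*), and *Bdnf* had 0.07 (standard error 0.19). None was called, against 1.68% and 1.36% of all genes, and the groups overlapped for all 6 members in both comparisons, where 7.58% and 6.67% of all genes had groups that did not. No interaction of exercise with hemisphere was called for any of them.

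SIT was compared with separate isolation among sedentary and among ELE mice, and *Ntrk2* was lower after SIT in both. The SIT mice carry other numbers (NT6 and TG7.4) than the rest (TG7.3, TG9.1 and TG9.2). SIT also took both hippocampi and separate isolation the left or the right one alone, homogenized in another way. Isolation, tissue taken and mouse series therefore cannot be told apart. Sedentary SIT mice had 559.9 and 523.5 CPM of *Ntrk2*, below all 6 separately isolated sedentary libraries (642 to 814 CPM). SIT minus separate isolation gave -0.44 on the log2 scale (standard error 0.090, edgeR adjusted p = 0.00767), and in ELE mice it was -0.40 (standard error 0.11, adjusted p = 0.0328), again without overlap. *Ntrk2* was the only member called in either comparison, and 15.5% and 12.8% of all genes were called there, while 29.6% and 15.1% had groups that did not overlap. In sedentary mice the *Ntrk2* difference lay between -0.49 and -0.40 with each library left out in turn. Leaving out NT6.305 or NT6.306 left a single sedentary SIT library, whose spread could not be estimated. The ELE call was lost without NT6.303 (-0.36) or TG7.4.1 (-0.27), and with all 8 SIT libraries the sedentary difference was -0.36, below the fold threshold. *Ntrk3* was lower in sedentary SIT mice by a log2 difference of -0.35 (standard error 0.087, adjusted p = 0.0192, edgeR), which was below the fold threshold. It lay between -0.39 and -0.32 with each library left out in turn. In ELE mice the *Ntrk3* difference was -0.24 (adjusted p = 0.222, edgeR), and with all 8 SIT libraries the sedentary difference of *Ntrk3* was -0.04. *Bdnf* differed by -0.03 (standard error 0.17) in sedentary mice and 0.22 (standard error 0.15) in ELE mice. The summed excitatory neuron markers were also lower in SIT, between 7116 and 8193 CPM against 8466 to 11030 CPM, and the astrocyte markers lay between 1837 and 3379 against 2415 to 5343 CPM. Among sedentary mice alone the astrocyte markers were lower in SIT without overlap (2227 to 2308 against 2748 to 5343 CPM). In sedentary mice the inhibitory neuron markers (75.1 to 75.8 against 40.7 to 62.9 CPM) and the mural and meningeal markers (59.0 to 59.8 against 36.6 to 55.3 CPM) were higher in SIT. The mitochondrial share of counts lay between 0.245% and 0.523% in the compared SIT libraries and between 0.0704% and 0.122% in the separate ones. The part of these in the receptor values was not tested. In such libraries fewer cells of a type and less mRNA per cell cannot be told apart.

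*Ntf5*, which encodes neurotrophin-4, another TrkB ligand, reached at most 4.34 CPM. It passed the unadjusted threshold on the left (log2 fold change 2.18, standard error 0.74, adjusted p = 0.960, edgeR), with 0.789 to 3.03 CPM in ELE and 0.139 to 0.743 CPM in sedentary mice. On the left 2.07% of all genes passed. In SIT and on the right its log2 fold changes were -0.54 (standard error 0.68) and -0.22 (standard error 0.61), which did not pass.

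Genes that sort and process proneurotrophins gave 1 lower gene of 9 in SIT, 2 higher on the left and none on the right, beside 3.65%, 2.07% and 1.97% of all genes called in these sets. *Hap1*, whose product carries BDNF vesicles, fell by 0.47 on the log2 scale in SIT (standard error 0.13, adjusted p = 0.905), from 178 and 232 CPM in sedentary mice to between 135 and 157 CPM in ELE mice. *Sorcs1*, a sortilin relative, was higher on the left by 0.78 (standard error 0.29, adjusted p = 0.960), with 7.79 to 14.5 against 4.16 to 7.68 CPM. *Sorcs3* also passed there, with overlapping groups. The median log2 fold change of the list was 0.02, 0.14 and 0.02 in SIT, left and right, beside medians of 0.00 over all genes tested.

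The lists of signalling genes below the receptors held called genes in numbers to be read against the same shares of all genes, 3.65% in SIT, 2.07% on the left and 1.97% on the right. Of 17 Trk adaptors and docking proteins, none passed in SIT or on the left, and 1 was lower on the right, *Sh2b2* (log2 fold change -0.64, 2.53 to 4.32 against 4.99 to 5.66 CPM). Of 14 genes of the Ras-MAP kinase arm, 1 passed, *Rps6ka3*, which encodes the ribosomal S6 kinase RSK2 and was higher on the right by 0.42 (26.5 to 36.0 against 23.4 to 24.6 CPM). Of 15 genes of the PI3 kinase-Akt-mTOR arm none passed in any set. Of 10 partners and effectors of p75, *Ripk2* was lower on the left by a log2 fold change of -0.49. None of the 9 regulators of *Bdnf* transcription, *Creb1* and *Hdac2* among them, was called. The medians of these 5 lists lay between -0.02 and 0.15 in the 3 sets.

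Another list held 10 genes known to be induced by neuronal activity, most of them by BDNF as well. All 10 had positive log2 fold changes in SIT, left and right alike, with medians of 0.26, 0.33 and 0.43, beside medians of 0.00 over all genes tested. Of them 3, 1 and 4 passed the unadjusted threshold, which 3.65%, 2.07% and 1.97% of all genes passed. None had an adjusted p under 0.05. *Nr4a1*, a nuclear receptor, was higher in SIT by 0.74 (standard error 0.18, adjusted p = 0.905), with 54.0 to 87.6 CPM in ELE and 38.3 to 43.2 CPM in sedentary mice, and on the right by 0.50, with 53.7 to 83.0 against 36.8 to 52.0 CPM. *Dusp5*, a phosphatase that acts on ERK, was higher in SIT by 0.46 (42.1 to 46.6 against 27.2 to 36.2 CPM). *Egr2*, a zinc finger transcription factor, was higher on the right by 2.58 (standard error 0.72, adjusted p = 0.9998), with 1.30 to 7.83 CPM against 0.224 to 1.18 CPM. *Arc* passed in SIT, *Fos* on the left, and *Egr1* and *Fos* on the right, all with overlapping groups. The list was chosen with earlier results of these data known, and the study named *Nr4a1* and *Dusp5* from these libraries. The direction of the list is therefore not independent evidence.

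The induced genes differed between single mice. In NT6.304, the ELE library left out by the study, all 10 of these genes were above all 4 SIT sedentary libraries, with 1133 CPM of *Arc*, 621 CPM of *Fos* and 892 CPM of *Nptx2*. Of all genes tested 26.0% were above in this library, and between 19.0% and 21.8% in the 3 compared ELE libraries. In NT6.303, the compared ELE library with the most *Bdnf*, 8 of 10 were above, and in TG7.4.1 and TG7.4.2 they were 3 and 5. In the left hippocampus 8 of 10 were above every sedentary library in TG9.1.4, the library with the most *Bdnf* there, and 5 and 2 in the other ELE libraries (TG7.3.2 and TG9.2.2), beside 35.1%, 24.9% and 27.8% of all genes in these 3 libraries. On the right, where *Bdnf* in ELE mice was within the sedentary range, the ELE libraries had 7, 8 and 5 of the 10 genes above every sedentary library, beside 21.8%, 22.9% and 22.0% of all genes. TG9.1.3, with 211 CPM of *Arc* and 24.5 CPM of *Fos*, had 76.9 CPM of *Bdnf*. TG9.1.1, the sedentary mouse with the most *Bdnf* (101.5 CPM), had the lowest *Arc* (47.7 CPM) of the right hippocampi.

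**Figure D5:**
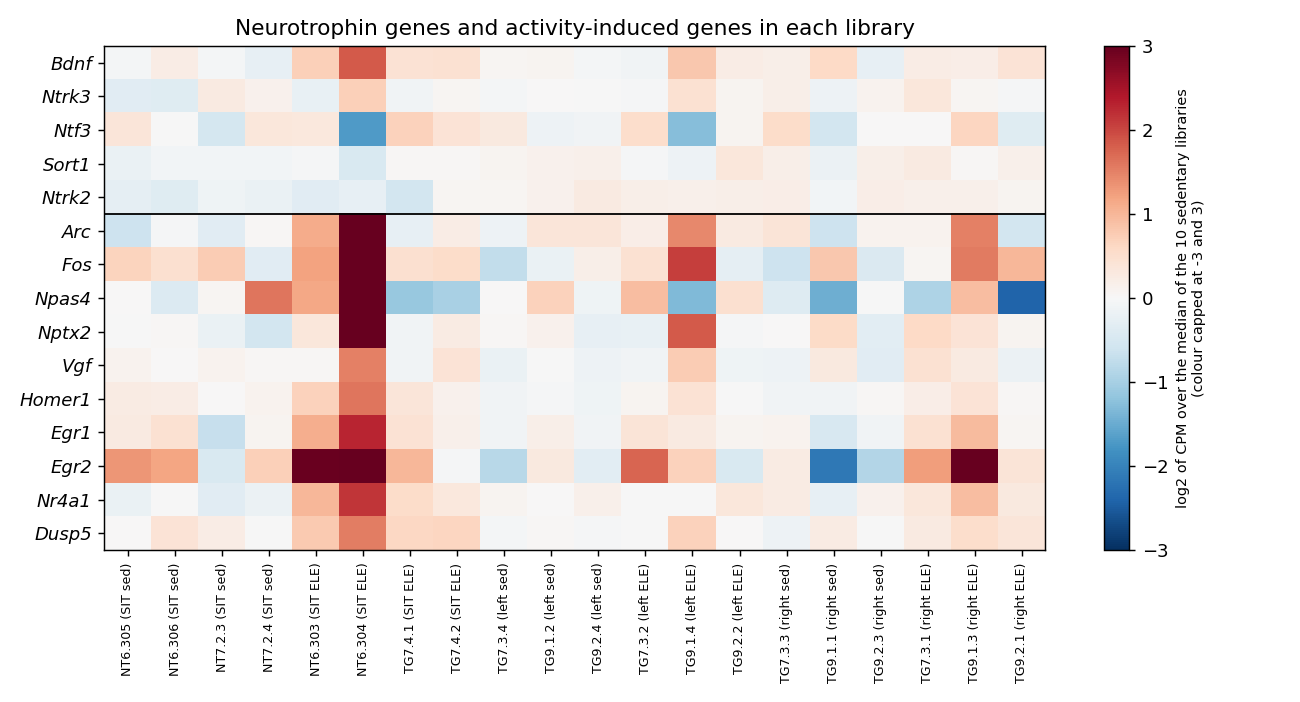
CPM of 5 neurotrophin genes (above the line) and 10 activity-induced genes (below it) in all 20 libraries, as the log2 ratio to the median of the 10 sedentary libraries, with the colour capped at 3 in either direction. ELE library NT6.304 is high for *Bdnf* (239.6 CPM) and all 10 induced genes and low for *Ntf3* (2.20 CPM), and TG9.1.4 is high for *Bdnf* (116 CPM) and *Nptx2* (319 CPM).

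The genes most like each member were sought over the 12 separately isolated libraries, among the 11162 genes that averaged 5 CPM or more, by Pearson's r of log2 CPM. These values are descriptions over libraries that share isolation and exercise groups. For *Bdnf* they were *Adrm1* (r = 0.958), *Mta2* (0.952), *Pip5k1c* (0.945), *Pdlim7* (0.943) and *Stx6* (0.94). For *Ntrk2* they were *Ahcyl1* (0.894), *Maob* (0.894) and *Abat* (0.887), and for *Ntrk3* they were *Crebbp* (0.91), *Dlg2* (0.898) and *Cry1* (0.884). *Ntf3* was most like *Fam19a2* (0.956), *Shisa9* (0.937) and *Clvs2* (0.935), and *Sort1* most like *Man2a2* (0.974), *Plppr4* (0.953) and *Amer2* (0.948). Without TG9.1.4 the values of these genes were between 0.765 and 0.973. For *Ngfr*, at under 100 counts, *Thada* (0.826), *Ruvbl2* (0.823) and *Smug1* (0.811) came first, values that rest on these low counts.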

How the data were processed

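TRAP-seq of 20 Emx1-NuTRAP hippocampus libraries was analysed, each from 1 mouse. Per the study's methods, reads were mapped to GRCm38 by STAR 2.7.3a and duplicates taken out by Picard 1.87, and the deposited values are raw counts of each gene by the authors. Mouse numbers of the columns were assigned to groups from the study's sample quality table. The libraries of the 3 comparisons were matched to the mean counts of the study's gene lists, reaching 633 of 633 genes in SIT (24 subsets tried), 548 of 548 on the left and 358 of 358 on the right. The order of the sample labels was not used: read as the order of the columns, it would give the same exercise groups and the opposite hemisphere for all 12 separately isolated libraries. A wild-type table was not used, because its 24 columns match no label. The members and gene lists were chosen with earlier results of these data known.

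Symbols, positions and exonic lengths came from GENCODE vM21 (55154 of 55335 genes matched) and promoters from a table of RefSeq starts, in which 4 of the 6 genes were matched. Counts were scaled with TMM, filtered with filterByExpr and tested with edgeR 4.0.16 (R 4.3.3), quasi-likelihood, fitting the groups compared, with Benjamini-Hochberg adjustment over all genes. The standard error is the absolute log2 fold change divided by the square root of F. Genes named were the 6 members, up to 4 called genes per list and comparison whose groups did not overlap, and the 3 genes (5 for *Bdnf*) most correlated with each member over the 12 separate libraries (log2 CPM, prior count 0.5). Others are named without that rule. Alternatives were DESeq2 1.42.0, median-of-ratios size factors, no filter, all 8 SIT libraries, only NT6 mice, a block of mouse number and leaving out each library. The steps were tested on simulated data. Every pair of libraries of a group differed beyond sampling noise (chi-square per gene at least 18.9 over 24 pairs).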

Additional observations from a re-analysis of the deposited data

Results flagged for a closer look

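In 12 groups of 4 SIT libraries (6 genes in ELE and in sedentary mice), 3 had a library standing apart from the others, where chance gives about 1 in 20. ELE mouse NT6.304 had 239.6 CPM of *Bdnf*, and its gap to the next library was 0.874 of the range of the group, above the limit of 0.829. The same library had 579 CPM of *Sort1*, below the other ELE libraries (gap 0.841 of the range). Sedentary mouse NT6.305 had 700.0 CPM of *Sort1*, below the other sedentary libraries, which lay between 751 and 754 CPM (gap 0.945 of the range).

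NT6.304 was not in the comparison of the study. Its *Bdnf* (239.6 CPM) and *Ntrk3* (289 CPM) were above all 4 SIT sedentary libraries, which reached 77.6 and 215 CPM. The cause was not tested.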

How the results depend on the processing

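Results were recomputed under the alternatives that apply to them. SIT minus left and SIT minus right were not recomputed with single libraries left out, the block was run for the separately isolated libraries alone, and only NT6 mice for SIT alone. Of the members, the values retained for the interaction, both hemispheres, SIT minus left and SIT minus right are those of *Bdnf* alone. For SIT against separate isolation they are those of *Ntrk2* and *Ntrk3* alone. The numbers of genes called, of 665 in SIT, 367 on the left, 347 on the right, 519 over the 3 sets and 378 over both hemispheres, moved with the filter: without it they were 691 on the left, 715 on the right, 1142 over the 3 sets, 961 over both hemispheres, 1041 for the interaction, 1517 and 1365 for SIT minus left and SIT minus right, and 721 and 501 for left against right in sedentary and ELE mice. DESeq2 called 552 on the left, 615 over both hemispheres and 469 for left against right in ELE mice. With the reported settings no gene had an adjusted p under 0.05 by edgeR in SIT, left or right, where 1000, 699 and 488 had an unadjusted p under 0.05. By edgeR without the filter 105, 0 and 27 genes had one, by DESeq2 14, 0 and 14, and leaving out 1 library gave at most 3, 1 and 3.

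With all 8 SIT libraries 1350 genes were called in SIT and 833 over the 3 sets, *Bdnf* over the 3 sets was 0.515 and passed, and SIT *Ntrk2* was -0.021, *Ntrk2* and *Ngfr* over the 3 sets -0.0033 and -0.24, and *Ntrk3* in SIT against separate ELE mice 0.00046, all with the sign turned. With only NT6 mice 1179 genes were called, *Ntf3* and *Sort1* turned to -0.57 and -0.10, and *Ntrk3* was 0.65 and not called. The exercise effect of *Bdnf* in SIT minus right passed without the filter (log2 difference 0.39, adjusted p = 0.854 by edgeR) and with all 8 libraries (0.94, adjusted p = 0.809 by edgeR), by the unadjusted threshold. In these fits 1365 of 30122 and 1104 of 19935 genes passed. For this difference and SIT minus left the fit with all 8 libraries was chosen after seeing the data. The causes were not tested.

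Leaving out each library gave 355 (without NT6.305) to 1086 (without TG7.4.2) called genes in SIT, 220 (without TG7.3.4) to 945 (without TG7.3.2, and 810 without TG9.2.2) on the left, 308 to 643 (without TG9.1.1) on the right, 354 to 718 for the interaction (without TG9.2.2; 630 without TG7.3.2, 635 without TG9.2.1), 332 to 635 over both hemispheres (without TG7.3.2; 633 without TG9.1.1), and 260 to 650 (without TG9.2.3; 512 without TG7.3.3) and 253 to 599 (without TG9.1.4; 421 without TG9.2.2) for left against right in sedentary and ELE mice. *Bdnf* ranged from 0.31 to 0.59 in SIT, 0.051 to 0.50 on the left, -0.12 to 0.29 on the right, 0.057 to 0.31 over both hemispheres and -0.014 to 0.45 for the interaction. *Ntrk2* ranged from -0.13 to 0.19 in SIT, -0.031 to 0.071 on the left, -0.076 to 0.068 on the right, -0.018 to 0.057 over the 3 sets, and -0.59 to -0.27 in SIT against separate ELE mice. *Ntf3* ranged from 0.13 to 0.48 in SIT, -0.48 to 0.31 on the left, -0.24 to 0.41 on the right and -0.017 to 0.22 over the 3 sets, *Ntrk3* from 0.052 to 0.29 on the left and -0.035 to 0.14 on the right, and *Sort1* from -0.20 to 0.053 on the left and -0.027 to 0.15 on the right. *Ngfr* ranged from -1.22 to 1.03 in SIT, -0.12 to 0.93 on the left, -0.72 to 0.23 on the right and -0.18 to 0.32 over the 3 sets. Of the 550 recomputed values retained, 468 kept their direction and side of the threshold or, for numbers of genes called, stayed within a fixed ratio of the reported number. Of the others 40 turned their sign, 33 moved beyond that ratio, 4 newly passed and 5 no longer passed.

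Mice with the same first part of their number did not deviate together: of 18 such pairs of libraries, correlations of deviations lay between -0.0496 and 0.25 and 1 was above 0.1. With this number as a replicate block, 314 genes were called on the left, 301 on the right, 415 for the interaction, 446 over both hemispheres, and 271 and 198 for left against right in sedentary and ELE mice. *Bdnf* under the block was 0.28 on the left and 0.10 on the right, and no member changed its call.

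*Ngfr* had 11 to 93 counts per library and its changes were not resolved. The SIT comparison has 2 sedentary libraries, and counting intervals cover sampling of reads alone. Fits without NT6.305 or NT6.306 hold a single sedentary SIT library, whose spread is not estimated there.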

Other observations

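In 3 libraries, picked out after the values were seen, *Bdnf* was high and *Ntf3* low. Within each library the TPM of *Bdnf* over that of *Ntf3* was 30.0 in ELE mouse NT6.304, 10.8 in ELE mouse TG9.1.4 and 5.72 in sedentary mouse TG9.1.1, and between 1.64 and 4.35 in the other libraries. The ratios in these 3 libraries came from low *Ntf3* (2.20, 2.97 and 4.89 CPM) as well as from high *Bdnf* (239.6, 116 and 101.5 CPM). NT6.303, with more *Bdnf* (109 CPM) than TG9.1.1, did not share this, with 8.95 CPM of *Ntf3* and a ratio of 3.35. The summed astrocyte markers were highest of all 20 libraries in TG9.1.1 (5343 CPM) and TG9.1.4 (5327 CPM), and highest of the SIT libraries in NT6.304 (4008 CPM), and their part was not tested. TG9.1.1 and TG9.1.4 share the first part of their number, and their deviations from the group means had a correlation of 0.25 over genes. Over the 12 separately isolated libraries Pearson's r between the log2 CPM of the ligands was -0.706, and -0.456 without TG9.1.4. *Nptx2*, the neuronal pentraxin 2 that BDNF is known to induce, was 892, 319 and 133 CPM in the same 3 libraries, and between 61.4 and 135 CPM in the rest, while *Npas4* was 139 CPM in NT6.304 and 1.41 and 1.26 CPM in the other two. *Bdnf* and *Ntrk2* also had opposite signs over these 12 libraries (r = -0.576, and -0.739 without TG9.1.4).

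Libraries with the same first part of the mouse number offered a view within number. On the left, *Bdnf* in ELE over sedentary mice had log2 ratios of -0.16 (TG7.3), 0.71 (TG9.1) and 0.28 (TG9.2), and on the right 0.05, -0.40 and 0.64. *Bdnf* was higher in the ELE mouse in 4 of 6 pairs, and *Ntrk3* in 5 of 6. These numbers were not shown to pair the mice, and no test was made.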
